A study of Mus musculus with 8 samples.

Results

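Collagen chains are the subunits of the collagens, the main proteins of connective tissue. The 37 protein-coding genes of the count table whose symbols follow the pattern Col, number, a, number were taken as members, of 21434 genes in all. They comprised 7 fibrillar chains (collagens I, III, V and XI), 8 basement membrane chains (collagens IV, XV and XVIII), 6 collagen VI chains and 16 other chains. RNA-seq of pancreatic tissue compared 4 Bach2KO with 4 Bach2WT mice. Both genotypes came from the line C57BL/6N-Bach2tm1b(EUCOMM)Wtsi/leg, in which Bach2KO mice lack Bach2 constitutively and in the whole body. All 8 mice were untreated and 18 weeks old. In both genotypes, mice 1 and 2 were female and mice 3 and 4 were male. Each library came from a separate mouse, and the knockout was not restricted to the pancreas or to any cell type.

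In the pancreas, collagens are made mainly by fibroblasts, pancreatic stellate cells, pericytes and endothelial cells, while the acinar cells that fill most of the organ make digestive enzymes. Fibrillar collagens form the ropes of the interstitial matrix, collagen IV forms the sheet of the basement membrane under acini, ducts and vessels, and collagen VI forms beaded microfilaments beside them. Fibrillar collagens accumulate when the pancreas scars, and autoimmune pancreatitis, the disease that the study addressed, is known for such fibrosis.

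The libraries held 72299745 to 172029360 counts on genes, and digestive enzyme genes took 79.8% to 82.7% of them. Collagen chains together took 0.00579% to 0.0152%, so that 4870 to 20800 counts per library stood behind all values below. Levels are given as CPM, the counts scaled to a common library total after TMM normalization, and levels of different genes are compared only as CPM per kilobase of gene length. Bach2 itself had 16, 3, 12 and 14 counts in Bach2KO mice 1 to 4 and 4, 4, 31 and 6 counts in Bach2WT mice 1 to 4, which is too few to check the genotype labels. Acinar markers summed to 390600 to 553700 CPM, endothelial markers to 27.0 to 73.6 CPM and fibroblast and stellate markers to 12.1 to 34.8 CPM. In whole tissue, fewer collagen-producing cells and less collagen RNA per cell cannot be told apart. In many collagen chains, Bach2KO mouse 1 was low and Bach2KO mouse 3 was high, so the main counts between genotypes are given with and without these mice.

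Col4a1 and Col4a2, which encode the chains of the common collagen IV of basement membranes, lie head to head and in the gene annotation of the count table overlapped by 22 bases at their starts. In RefSeq (GRCm38.p6), these bases were chr8:11312805-11312826, shown on the plus strand, from which Col4a2 is read. They are shown because both genes start within them.
Col4a1 and Col4a2, shared start: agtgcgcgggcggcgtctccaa
Upstream windows were found in RefSeq for 30 of the 37 chains. The 100 bases before the start are shown for chains that the results below turn on and whose window touches no annotated exon, with the letters of a GC box (GGGCGG, or CCGCCC on the other strand) in capitals.
Col3a1, chr1:45311438-45311537, plus strand: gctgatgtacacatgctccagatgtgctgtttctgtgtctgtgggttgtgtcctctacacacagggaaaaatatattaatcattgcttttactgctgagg
Col5a1, chr2:27886325-27886424, plus strand: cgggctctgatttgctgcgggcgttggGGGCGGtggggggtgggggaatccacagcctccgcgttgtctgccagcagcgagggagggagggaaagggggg
Col5a3, chr9:20815068-20815167, minus strand: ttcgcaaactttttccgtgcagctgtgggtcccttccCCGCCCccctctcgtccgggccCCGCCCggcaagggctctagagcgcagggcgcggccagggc
Col15a1, chr4:47207912-47208011, plus strand: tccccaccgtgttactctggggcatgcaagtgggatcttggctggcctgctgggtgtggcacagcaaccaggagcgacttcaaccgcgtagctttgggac
Col7a1, chr9:108953486-108953585, plus strand: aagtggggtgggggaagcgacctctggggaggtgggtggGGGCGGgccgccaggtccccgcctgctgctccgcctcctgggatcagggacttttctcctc
Of these windows, those of Col3a1 and Col15a1 had GC contents of 43.0% and 61.0% and no GC box, while those of Col5a1, Col5a3 and Col7a1 had 71.0% to 72.0% and at least 1 GC box each. On either strand of the 250 bases before the start, the letters GGGCGG occurred in 19 of the 30 chains, counting any window of a chain, and in 32.7% of the 32851 windows of all genes. The letters CCAAT occurred in 10 of the 30 chains against 33.8% of windows, and TATAAA in 4 against 12.4%. These are letter matches only.

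No collagen chain passed a test between the genotypes. Of the 37 chains, 24 passed the filter on low counts, and 0 of these passed an adjusted p of 0.05 in edgeR's quasi-likelihood test, where 0.0078% of all 12820 genes tested passed. At an unadjusted p of 0.05 there were also 0 of 24 chains, against 7.46% of all genes, and the values of Bach2KO and Bach2WT mice overlapped in all 24 chains, while 4.49% of all genes had groups that did not overlap. DESeq2 also gave 0 chains by adjusted and 0 by unadjusted p. The log2 fold change of Bach2KO against Bach2WT was above 0 in 15 and below 0 in 9 chains, with a median of 0.11 beside 0.05 over all genes tested. This split rested on single mice. It was 17 above and 6 below 0 without Bach2KO mouse 1, 9 and 18 without Bach2KO mouse 3, 21 and 7 without Bach2WT mouse 1, and 15 and 16 without both Bach2KO mice 1 and 3, with other numbers of chains past the filter in each. By class, the median log2 fold change was 0.04 for the 6 fibrillar, 0.28 for the 5 basement membrane, 0.15 for the 5 collagen VI and -0.24 for the 8 other chains that were tested. With each mouse left out in turn these medians ranged from -0.16 to 0.35 for the fibrillar, from 0.08 (without Bach2KO mouse 3) to 0.51 for the basement membrane, from -0.12 (likewise) to 0.35 for the collagen VI and from -0.44 to 0.16 (without Bach2WT mouse 3) for the other chains. With DESeq2, which tested all 37 chains, the medians were 0.01 for the fibrillar and 0.21 for the basement membrane chains. They were -0.02 for the collagen VI and 0.11 for the other chains there. In edgeR, all 5 tested basement membrane chains had values above 0 with all mice included. The lowest adjusted p among collagen chains was 0.799, for Col18a1.

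**Figure D1:**
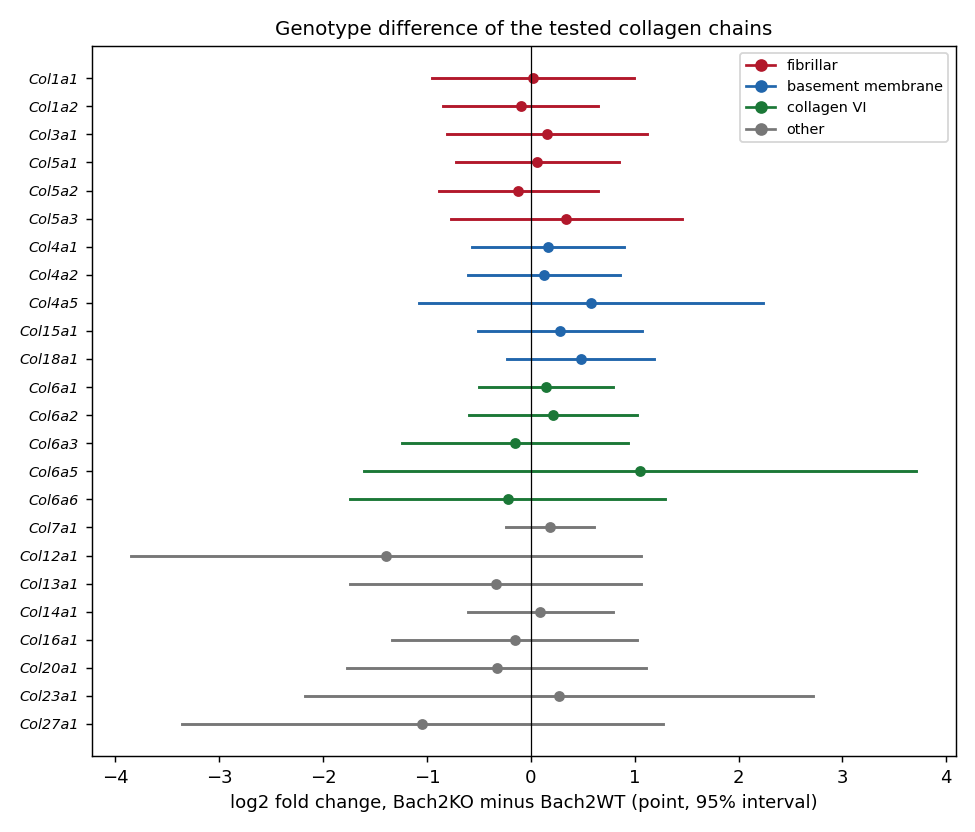
Log2 fold change of Bach2KO against Bach2WT mice (x axis) for the 24 tested collagen chains (y axis), coloured by class, with points for the edgeR estimate and bars for its 95% interval over 4 and 4 mice. All 24 intervals cross 0, from Col12a1 at -1.40 to Col6a5 at 1.05, and they are narrowest for Col7a1.

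Among fibrillar chains, Col1a1 and Col1a2 encode the chains of collagen I, the main collagen of scars. The level of Col1a1 was 1.99, 13.9, 12.9 and 10.3 CPM in Bach2KO mice 1 to 4 and 12.8, 12.7, 7.78 and 5.27 CPM in Bach2WT mice 1 to 4. Bach2KO mouse 1 was the lowest of all 8 mice by a wide margin, and the other Bach2KO mice lay within or just above the Bach2WT range. The log2 fold change of Col1a1 was 0.02 (SE 0.45, adjusted p = 0.998, n = 4 and 4), with a 95% interval of -0.95 to 0.99. Col1a2 stood at 3.58, 11.1, 15.3 and 13.1 CPM in Bach2KO and at 16.0, 11.8, 9.99 and 8.28 CPM in Bach2WT mice, again with Bach2KO mouse 1 at the bottom. Its log2 fold change was -0.10 (SE 0.35). Per kilobase, Col1a1 was 1.05 to 2.38 times Col1a2 in the 8 libraries. Before division by length, the mean over all 8 libraries was 9.72 CPM for Col1a1 and 11.1 CPM for Col1a2. The ratio thus rests on the gene lengths given with the counts, 6563 and 12426 bases, and says nothing of the protein chains.

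Col3a1, the chain of collagen III of soft tissue and early scar, stood at 2.47, 13.9, 14.7 and 14.6 CPM in Bach2KO mice and at 16.0, 10.7, 9.18 and 5.20 CPM in Bach2WT mice. Here 3 Bach2KO mice lay close together, below Bach2WT mouse 1 and above the other Bach2WT mice. The log2 fold change over all mice was 0.15 (SE 0.45, 95% interval -0.81 to 1.11). Collagen V, which sets the width of collagen I fibrils, was lower, with a mean of 0.224 CPM per kilobase for Col5a1 against 1.48 for Col1a1. Col5a1 ranged from 0.735 to 2.76 CPM in Bach2KO and from 1.22 to 2.48 CPM in Bach2WT mice, Col5a2 from 0.519 to 1.51 and from 0.893 to 1.27 CPM, and Col5a3 from 0.358 to 2.67 and from 0.627 to 2.06 CPM. Their log2 fold changes were 0.06 (SE 0.36), -0.12 (SE 0.35) and 0.34 (SE 0.52). The lowest value of each was again that of Bach2KO mouse 1. Col11a2, a chain of cartilage collagen XI, had 45 counts in all 8 libraries together and was not tested. Col2a1 and Col11a1 were not among the rows analysed here.

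**Figure D2:**
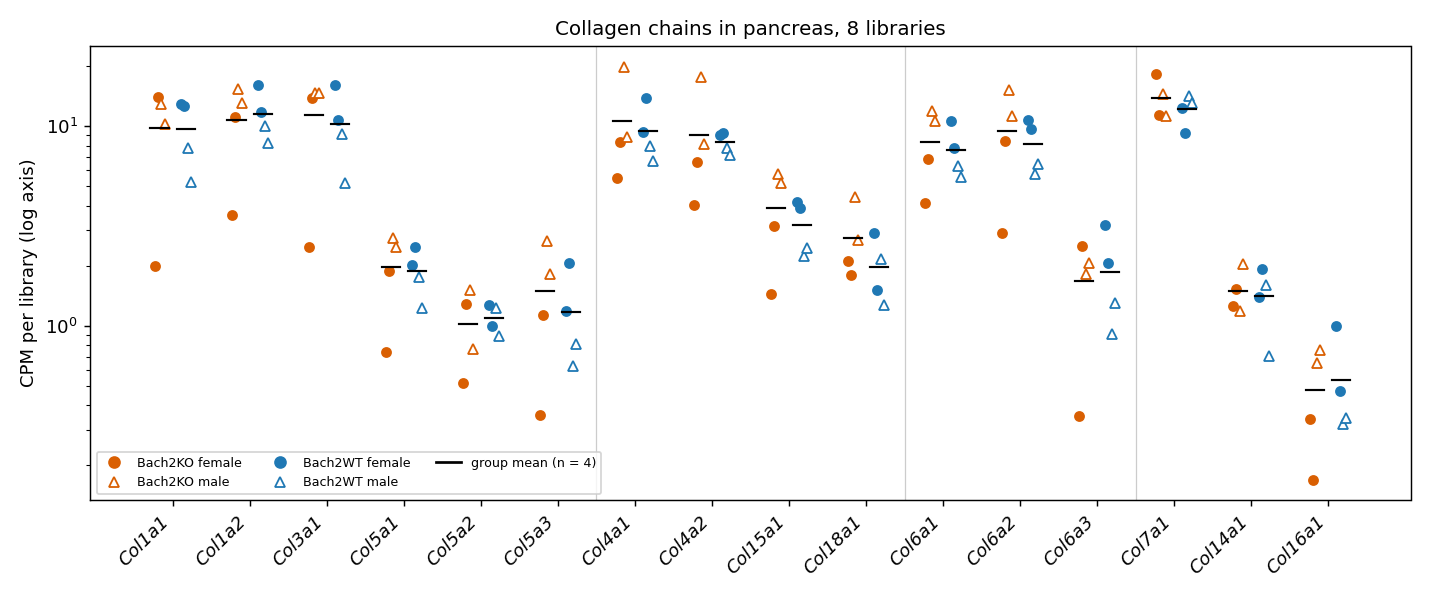
CPM per library (y axis, log scale) of 16 collagen chains (x axis, ordered by class: fibrillar, basement membrane, collagen VI, other), with filled circles for females, open triangles for males and black lines for group means (n = 4). Bach2KO mouse 1, a female, is the lowest point of all fibrillar chains shown, and Col7a1 is high in all 8 libraries.

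Of the basement membrane chains, Col4a1 reached 5.53, 8.32, 19.9 and 8.83 CPM in Bach2KO mice and 9.34, 13.9, 7.97 and 6.71 CPM in Bach2WT mice. Col4a2 reached 4.0, 6.59, 17.6 and 8.17 CPM in Bach2KO mice and 9.04, 9.22, 7.80 and 7.17 CPM in Bach2WT mice. Both were highest in Bach2KO mouse 3 and lowest in Bach2KO mouse 1, so that the Bach2WT mice lay between these. The log2 fold changes were 0.16 (SE 0.34) for Col4a1 and 0.12 (SE 0.34) for Col4a2, and they were -0.34 and -0.43 without Bach2KO mouse 3. Per kilobase, Col4a1 was 0.830 to 1.33 times Col4a2 over the 8 libraries.

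The chains of the other collagen IV networks, known from the kidney, testis and smooth muscle, were at most weakly present. Col4a5 ranged from 0.121 to 0.500 CPM in Bach2KO and from 0.0348 to 0.374 CPM in Bach2WT mice, with a log2 fold change of 0.58 (SE 0.77). Col4a3, Col4a4 and Col4a6 had 73, 100 and 72 counts over all 8 libraries and were below the filter, with 0 counts in 3, 1 and 3 libraries. Their groups overlapped, and two-sided exact permutation tests of their CPM gave p = 0.914, 0.80 and 0.143, where 0.0286 was the smallest p possible.

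Col15a1 and Col18a1 encode collagens XV and XVIII, which carry sugar chains and border basement membranes, and the end of collagen XVIII gives endostatin, an inhibitor of vessel growth. Col15a1 stood at 1.43, 3.15, 5.79 and 5.16 CPM in Bach2KO mice and at 4.17, 3.91, 2.23 and 2.45 CPM in Bach2WT mice. The Bach2KO females lay below the Bach2WT females, the Bach2KO males lay above all Bach2WT mice, and the log2 fold change over both sexes was 0.28 (SE 0.37). Col18a1 stood at 2.10, 1.80, 4.41 and 2.68 CPM in Bach2KO and at 2.92, 1.51, 2.17 and 1.27 CPM in Bach2WT mice, with the groups overlapping. Its log2 fold change was 0.48 (SE 0.33, 95% interval -0.23 to 1.19, unadjusted p = 0.168), the smallest p of all 24 chains in edgeR. The Col18a1 gene shares 8825 bases with Slc19a1 on the opposite strand, so reads of the 2 genes could be mixed if strand was not used in counting.

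Collagen VI had the highest level per kilobase of all chains through Col6a1, at a mean of 1.91 ± 0.811 CPM per kilobase in Bach2KO and 1.73 ± 0.511 in Bach2WT mice (SD, n = 4 each). In CPM, Col6a1 stood at 4.14, 6.81, 11.9 and 10.6 in Bach2KO and at 10.6, 7.73, 6.28 and 5.59 in Bach2WT mice. Col6a2 stood at 2.92, 8.43, 15.1 and 11.2 CPM in Bach2KO and at 10.7, 9.64, 5.79 and 6.45 CPM in Bach2WT mice. In both chains the Bach2KO values fanned out around the Bach2WT values, with log2 fold changes of 0.15 (SE 0.30) for Col6a1 and 0.21 (SE 0.38) for Col6a2. Col6a3, the long chain whose cleaved end is endotrophin, stood at 0.352, 2.50, 1.82 and 2.06 CPM in Bach2KO and at 3.20, 2.05, 0.912 and 1.30 CPM in Bach2WT mice. Its log2 fold change was -0.15 (SE 0.50). The genes of the later chains Col6a4, Col6a5 and Col6a6 stand in a row on chromosome 9. Col6a5 ranged from 0 to 0.661 CPM and Col6a6 from 0.0557 to 0.734 CPM over all 8 libraries, with log2 fold changes of 1.05 (SE 1.23) and -0.22 (SE 0.70). Col6a4 had 17 counts, all from Bach2KO mouse 4 and Bach2WT mouse 1, and was not tested.

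Among the other chains, Col7a1 had the highest level, at a mean of 1.27 CPM per kilobase over all 8 libraries, the fifth of all collagen chains after Col6a1, Col1a1, Col4a1 and Col4a2. It encodes collagen VII, which forms the anchoring fibrils that fix epithelia to the matrix and which is made by epithelial cells as well as fibroblasts. Col7a1 stood at 18.3, 11.4, 14.5 and 11.3 CPM in Bach2KO and at 12.3, 9.28, 14.2 and 13.0 CPM in Bach2WT mice, and unlike the fibrillar chains it was highest in Bach2KO mouse 1. Its log2 fold change was 0.18 (SE 0.20), and its 95% interval of -0.24 to 0.61 was the narrowest of the 24.

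Col14a1, a fibril-associated chain, ranged from 1.19 to 2.03 CPM in Bach2KO and from 0.706 to 1.92 CPM in Bach2WT mice, with a log2 fold change of 0.09 (SE 0.32). Col16a1, another fibril-associated chain, ranged from 0.169 to 0.751 and from 0.320 to 0.999 CPM, with -0.16 (SE 0.54). The membrane-bound chains Col13a1 and Col23a1 had log2 fold changes of -0.34 (SE 0.65) and 0.27 (SE 1.13), and Col20a1 had -0.33 (SE 0.67), all at means under 0.4 CPM. A long noncoding RNA gene overlaps Col20a1 by 741 bases on the same strand, which leaves its counts uncertain. Col12a1 and Col27a1 had the lowest values, at -1.40 (SE 1.14) and -1.05 (SE 1.07), on 100 and 135 counts in all. Col8a1, Col8a2, Col9a2, Col9a3, Col17a1, Col24a1, Col26a1 and Col28a1 were below the filter with at most 74 counts each. Over the 13 chains below the filter, 12 had 0 counts in at least 1 library, and a count of 0 allowed up to 0.0155 to 0.0432 CPM, depending on the library (3 counts, counting error only).

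Per kilobase, the composition of the collagen transcripts differed between the groups by less than the spread between mice. Fibrillar chains took 29.8% ± 10.6 of the summed collagen CPM per kilobase in Bach2KO and 32.6% ± 4.19 in Bach2WT mice, basement membrane chains 29.0% ± 5.45 and 28.4% ± 2.60, collagen VI chains 24.4% ± 3.09 and 24.3% ± 2.48, and other chains 16.8% ± 11.1 and 14.7% ± 4.56 (SD, n = 4 each). The larger spread in Bach2KO mice came with mouse 1, in which fibrillar chains took 15.6% and other chains, mainly Col7a1, took 33.3%. In the other 7 libraries, the ranges were 26.9% to 40.7% and 9.83% to 19.0%.

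**Figure D3:**
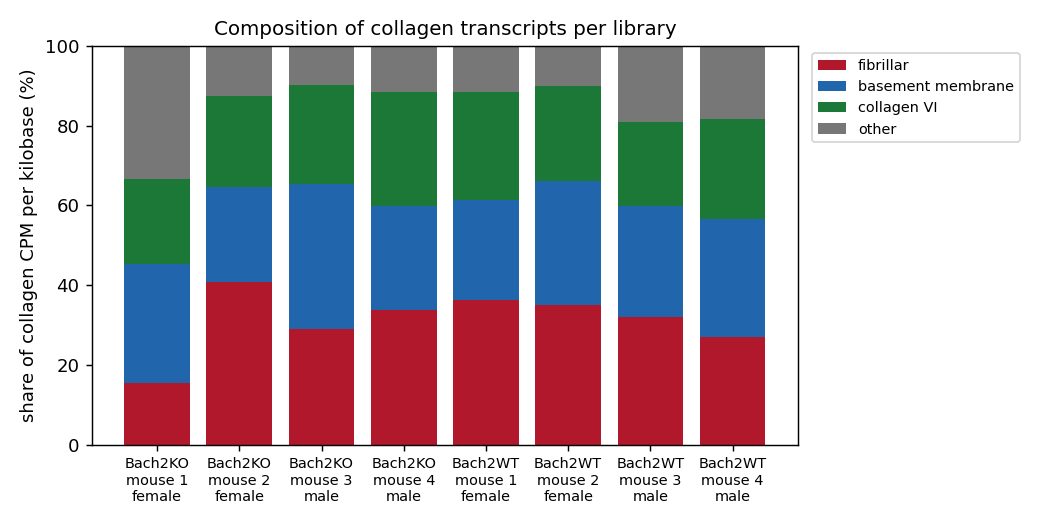
Share of each collagen class in the summed CPM per kilobase of all 37 chains (y axis, %) in each of the 8 libraries (x axis, with genotype, mouse number and sex). Bach2KO mouse 1 has the smallest fibrillar share, 15.6%, and the largest share of other chains, 33.3%.

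A pair of Bach2KO libraries stood apart in the collagen chains. Bach2KO mouse 1, a female, had the lowest value of all 8 mice in 12 of the 24 tested chains, namely in 6 of 6 fibrillar, 3 of 5 basement membrane, 3 of 5 collagen VI and 0 of 8 other chains. The fibrillar chains summed to 9.69 CPM in this mouse and to 22.0 to 49.9 CPM in the other 7. Its fibroblast and stellate markers summed to 21.5 CPM, the lowest of the Bach2KO mice, which had 22.0 to 34.8 CPM otherwise, and within the 12.1 to 29.0 CPM of the Bach2WT mice. Vim, which many cell types express, gave 12.8 CPM of this sum, and without it the sum was 8.72 CPM, the lowest but for the 6.61 CPM of Bach2WT mouse 4. Pi16 was the lowest of all 8 libraries there, at 0.426 CPM, and was the only marker of this list outside the Bach2WT range. Pdgfra, Thy1 and Des, for example, stood there at 0.877, 1.40 and 2.01 CPM, within that range. The T cell markers and B and plasma cell markers of Bach2KO mouse 1 were the highest of all 8 libraries, at 1.96 and 16.2 CPM against at most 1.29 and 9.77 CPM. Dcn, the proteoglycan decorin of fibroblasts, stood there at 18.2 CPM, within the range of 5.83 to 19.6 CPM in the Bach2WT mice. Bach2KO mouse 3, a male, had the highest value of all mice in 9 chains, among them 4 of 5 basement membrane chains, and its endothelial markers summed to 73.6 CPM against 27.0 to 40.4 CPM in the others. The part of these cell types in the collagen values was not tested. Without Bach2KO mouse 1, the median log2 fold change of the fibrillar chains was 0.35, and without Bach2KO mouse 3 it was -0.16. The counts by adjusted and by unadjusted p were 0 without either mouse and without both.

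No collagen chain passed the edgeR test for sex. The genotype difference had opposite signs in females and males in a group of them, without passing the adjusted threshold in edgeR. Female against male, with genotype in the model, 0 of 24 chains passed an unadjusted p of 0.05 in edgeR, against 5.29% of all genes, with 1 chain by DESeq2 and a median log2 difference of -0.19. For the interaction, which is the log2 fold change of Bach2KO against Bach2WT in females minus that in males, 9 of 24 chains passed an unadjusted p of 0.05, against 6.14% of all genes. All 9 were below 0, where 3.27% of all genes passed in this direction. None passed after adjustment in edgeR with all mice, with a lowest adjusted p of 0.781. In DESeq2, 1 chain passed (adjusted p = 0.0485), where 14 of 21434 genes passed. The median interaction was -1.36 over the 24 chains and -0.01 over all genes tested, and 18 of the 24 were below 0.

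The 9 chains were the fibrillar Col1a2, Col5a1 and Col5a3, the basement membrane chains Col4a1, Col4a2 and Col15a1, the collagen VI chains Col6a1 and Col6a2, and Col16a1. In each of them both Bach2KO females lay below both Bach2WT females and both Bach2KO males lay above both Bach2WT males. This pattern was looked for after the values were seen. It occurred in 9 of the 24 tested chains, these same ones, and in 2.78% of all genes tested. Because these chains were picked by their interaction, the pattern is not a separate result. Col6a1, with the smallest p, had an interaction of -1.67 (SE 0.40, unadjusted p = 0.00123), made up of a log2 fold change of -0.75 in females and 0.92 in males. For Col15a1 the interaction was -2.05 (SE 0.49, unadjusted p = 0.00132), with -0.83 in females and 1.23 in males. The largest of the 9 was that of Col5a3, at -2.79 (SE 0.77), with 0.358 and 1.14 CPM in the Bach2KO and 1.19 and 2.06 CPM in the Bach2WT females, and 2.67 and 1.82 CPM in the Bach2KO and 0.627 and 0.806 CPM in the Bach2WT males. Col7a1 differed from these in sign, at 0.54 (SE 0.39), but did not pass. The largest estimate in size was that of Col23a1, at 4.61 (SE 2.24), on 126 counts in all.

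**Figure D4:**
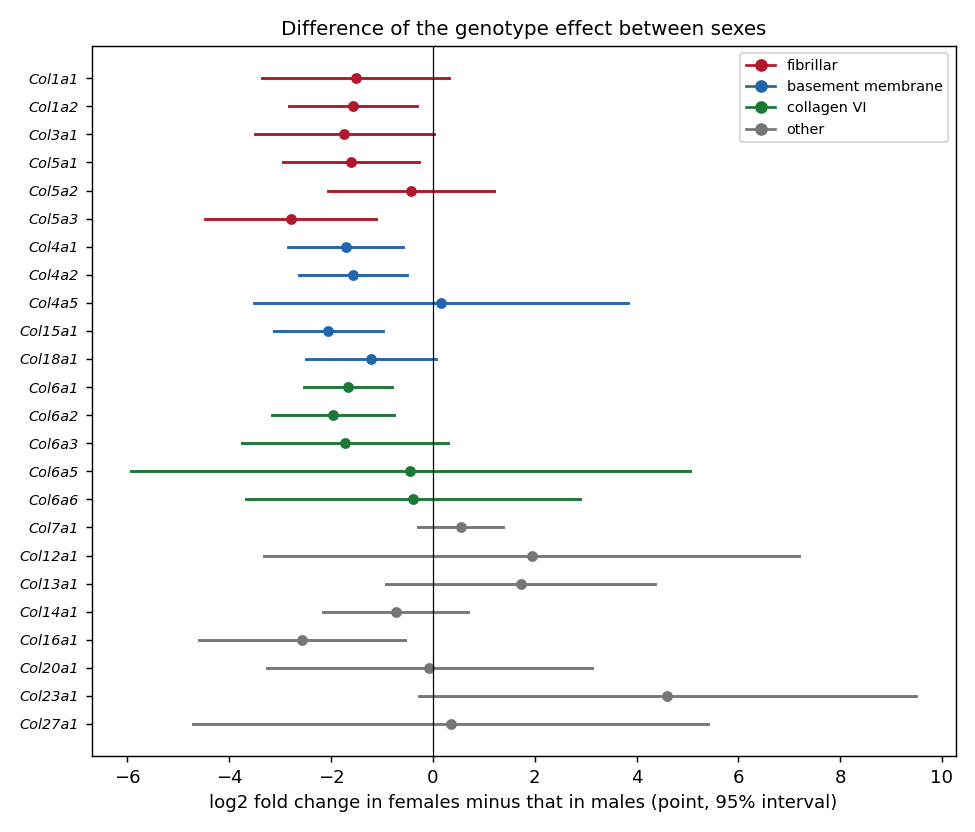
Interaction of sex and genotype (x axis, log2 fold change of Bach2KO against Bach2WT in females minus that in males) for the 24 tested chains (y axis), with points for the edgeR estimate and bars for its 95% interval, from 2 mice per sex and genotype. The intervals of 9 chains lie wholly below 0, as for Col6a1 at -1.67 and Col15a1 at -2.05, and none lies wholly above 0.

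The class sums show the same values in CPM. Fibrillar chains summed to 9.69 and 43.4 CPM in Bach2KO females and 49.3 and 40.7 CPM in Bach2WT females, and to 49.9 and 43.1 CPM in Bach2KO males and 30.6 and 22.0 CPM in Bach2WT males. Basement membrane chains summed to 14.0 and 20.3 CPM in Bach2KO and 26.0 and 28.9 CPM in Bach2WT females, and to 48.3 and 25.2 CPM in Bach2KO and 20.2 and 18.5 CPM in Bach2WT males. Collagen VI chains summed to 8.42 and 18.0 CPM in Bach2KO and 25.3 and 19.9 CPM in Bach2WT females, and to 29.3 and 24.6 CPM in Bach2KO and 13.2 and 14.1 CPM in Bach2WT males. In basement membrane and collagen VI chains the sums did not overlap between the genotypes within either sex, while in fibrillar chains they overlapped in females. The other chains did not follow this, with 21.2, 14.0, 17.4 and 14.8 CPM in Bach2KO mice 1 to 4 and 16.0, 12.2, 18.1 and 15.5 CPM in Bach2WT mice 1 to 4. The mice that stood apart were 1 female and 1 male of the Bach2KO group. With 2 mice per sex and genotype, a fit without either leaves 1 mouse of that sex and genotype, so only effect sizes are given. The median interaction was -1.08 without Bach2KO mouse 1, with 18 of 23 chains below 0. It was -1.02 without Bach2KO mouse 3, with 17 of 27 below 0, and -0.61 without both, with 23 of 31 below 0.

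**Figure D5:**
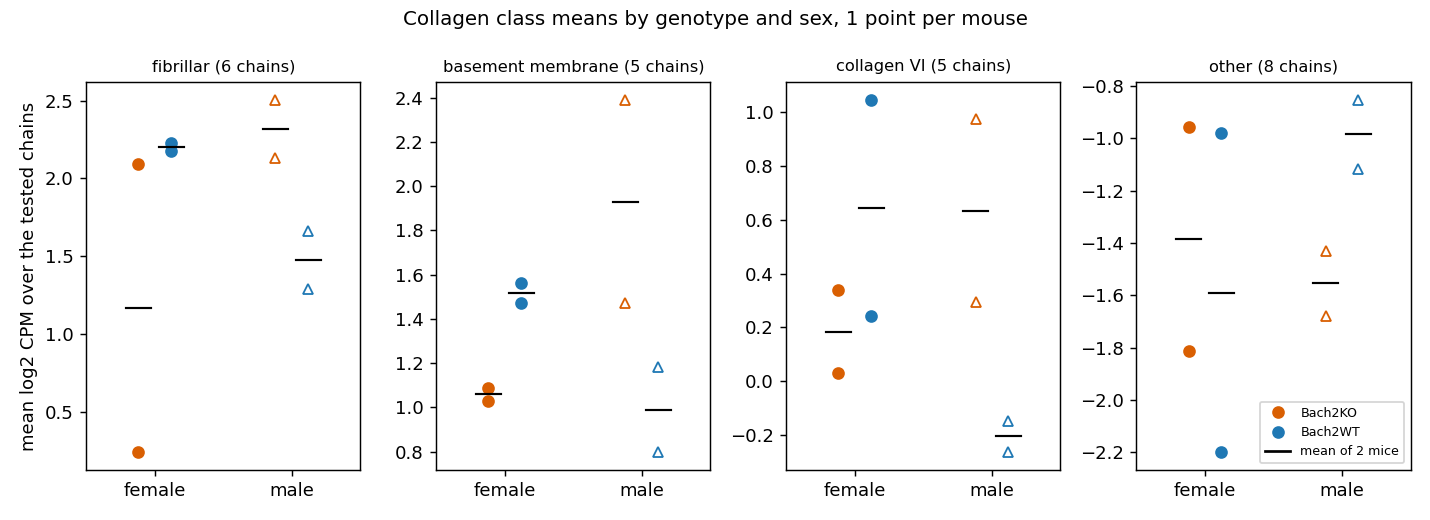
Mean log2 CPM over the tested chains of each class (y axis, a scale of its own in each panel) by sex (x axis) and genotype, with 1 point per mouse and black lines for the mean of 2 mice. In males, the Bach2KO points lie above the Bach2WT points in the first 3 panels, and in females the Bach2KO mean lies below the Bach2WT mean there.

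Interactions below 0 were also found in the marker lists of several cell types, some of which make collagen and some of which are immune cells. The interaction was below 0 in 8 of 8 tested fibroblast and stellate markers, 4 of them at an unadjusted p of 0.05 and with a median of -1.13, and in 8 of 8 endothelial markers, 5 of them at an unadjusted p of 0.05 and with a median of -1.04. It was also below 0 in 8 of 8 macrophage markers (3 at an unadjusted p of 0.05, median -0.70) and in 4 of 4 mesothelial markers (0 at that p, median -0.85). In T cell markers it was below 0 in 4 of 4 tested (1 at that p, median -3.93). All 6 listed T cell markers had 0 counts in at least 1 library. Trac and Cd3d had 0 counts in both Bach2WT males, so the size of this median is uncertain. Over all genes tested, 3.27% were below 0 at an unadjusted p of 0.05. Fibroblast and stellate markers summed to 21.5 and 22.3 CPM in Bach2KO and 29.0 and 19.4 CPM in Bach2WT females, and to 34.8 and 22.0 CPM in Bach2KO and 16.4 and 12.1 CPM in Bach2WT males. Their part in the collagen values was not tested. Among 6 pericyte and smooth muscle markers tested, the interaction was below 0 in 4, with 0 at an unadjusted p of 0.05. The remaining lists were mixed. The interaction was below 0 in 4 of 8 acinar, 2 of 5 duct and 2 of 6 islet markers tested. It was below 0 in 3 of 5 adipocyte, 3 of 4 B and plasma cell and 1 of 2 Schwann markers tested.

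The proteins that make, secrete and crosslink collagen were measured as a list of 32 genes, of which 27 were tested. Of these, 10 had values above 0 and 17 below 0 for Bach2KO against Bach2WT, 0 passed the adjusted threshold, and the median log2 fold change was -0.09. Mia3, which loads collagen into transport vesicles, passed an unadjusted p of 0.05 with 11.4, 10.0, 8.62 and 9.09 CPM in Bach2KO mice and 12.8, 15.1, 11.2 and 11.3 CPM in Bach2WT mice, overlapping narrowly. Its log2 fold change was -0.36 (SE 0.16, adjusted p = 0.663). P4ha2, a catalytic subunit of prolyl 4-hydroxylase, had -0.42 (SE 0.22). P4hb and Ppib, general folding enzymes of the endoplasmic reticulum, were the most abundant per kilobase and had -0.09 (SE 0.15) and -0.03 (SE 0.15). For the interaction, 5 genes were below 0 at an unadjusted p of 0.05, among them Serpinh1, the chaperone of collagen in the endoplasmic reticulum, at -1.76 (SE 0.57), with Pcolce, Colgalt2, Adamts2 and Loxl1, and Lox was above 0. These 6 were named for having passed.

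Partners of collagen in the matrix formed 2 further lists. Of 11 tested proteoglycans and fibril partners, 4 had values above and 7 below 0, with a median of -0.07 and 0 at an unadjusted p of 0.05. Dcn and Bgn, the most abundant of them per kilobase, had log2 fold changes of 0.14 (SE 0.38) and 0.08 (SE 0.25), and Ogn and Fmod, which had the smallest p, had -1.02 (SE 0.67) and 0.50 (SE 0.41). The interaction was below 0 in 10 of the 11, and in Bgn, Fn1, Prelp and Tnxb at an unadjusted p of 0.05. Of 16 tested laminins and other basement membrane partners, 12 had values above and 4 below 0, with a median of 0.10 and 0 at an unadjusted p of 0.05. Sparc, which binds collagen as it leaves the cell, had 0.04 (SE 0.34), Lamb3 -0.14 (SE 0.24), Lamc3 -1.39 (SE 0.75) and Agrn 0.30 (SE 0.18). At an unadjusted p of 0.05 the interaction was below 0 in Sparc, Hspg2 and Nid1 and above 0 in Lama5, and these were named for having passed.

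Of the collagen receptors, 8 of 11 were tested, 6 with values above and 2 below 0. Ddr1, the receptor tyrosine kinase of epithelial cells that is activated by collagen, stood at 8.70, 6.91, 8.04 and 6.54 CPM in Bach2KO and at 5.56, 6.96, 4.35 and 5.73 CPM in Bach2WT mice. Only Bach2WT mouse 2 reached into the Bach2KO range, and the log2 fold change was 0.42 (SE 0.18, unadjusted p = 0.0394, adjusted p = 0.662). Mrc2, which takes up collagen fragments, had -0.36 (SE 0.34), and Adgrg1 and Itgb1 had 0.09 (SE 0.17) and 0.10 (SE 0.19).

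Of the TGF-beta pathway, which drives collagen transcription in scarring tissue, 16 of 17 genes were tested, 10 with values above and 6 below 0, and with a median of 0.11. Tgfbi, a matrix protein induced by TGF-beta, stood at 3.61, 3.78, 2.52 and 1.64 CPM in Bach2KO and at 2.81, 1.24, 1.36 and 0.821 CPM in Bach2WT mice. The groups overlapped, and its log2 fold change was 0.89 (SE 0.37, unadjusted p = 0.0319, adjusted p = 0.643). Ccn2, another target gene, had 1.33 (SE 0.68), and Ltbp3, which holds latent TGF-beta in the matrix, had -0.14 (SE 0.15). Smad2, a signal carrier of the pathway, was named for being the only gene of the 5 lists whose groups did not overlap, against 4.49% of all genes. It had 1.19 to 1.49 CPM in Bach2KO and 0.944 to 1.09 CPM in Bach2WT mice and a log2 fold change of 0.40 (SE 0.25, adjusted p = 0.788). At an unadjusted p of 0.05, 1 gene passed in each of the synthesis, receptor and TGF-beta lists and none in the other lists, against 7.46% of all genes.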

How the data were processed

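RNA-seq covered pancreas of 4 Bach2KO and 4 Bach2WT mice. Per the submitters' processing notes, reads were handled with fastp, HISAT2 2.2.1 and featureCounts 2.0.6 on mm39; the strand setting and the treatment of read mates are not given in the sources used here. The authors deposited raw counts per gene and library, which were used here, with gene lengths and coordinates. The authors also deposited a normalized signal (counts divided by a size factor), FPKM values made from it, and the results of their own comparison of the genotypes (log2 fold changes with p-values, raw and adjusted), none of which were used. Every column matched a sample by name.

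Genotypes were compared with edgeR 4.0.16 (TMM, filterByExpr on genotype, quasi-likelihood fit and test, all 8 libraries, no covariate), which tested 12820 of 21434 genes, with Benjamini-Hochberg adjustment over all of them. Fits with sex and with the interaction of sex and genotype used the same genes. The standard error was the size of the log2 fold change divided by the square root of F. With 1 library per mouse, the p-values test a difference between groups against the variation between mice. For chains below the filter, exact permutation tests (two-sided) of CPM were run. Totals of 72299745 to 172029360 counts and a biological coefficient of variation of 0.438 set the precision. Even counts made up 59.6% of counts, so a pair of mates may count as 2. On simulated counts for these 12820 genes, 72.5% of 200 genes changed by 2 on the log2 scale were recovered in the comparison of genotypes, with 5 false calls. The log2 fold changes of the tested collagen chains, -1.40 to 1.05, were smaller in size, so this share does not describe the power for them.

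Upstream sequences came from RefSeq (GRCm38.p6), and GC content from GENCODE transcripts of the same build, for 97.2% of genes. Named were the fibrillar, basement membrane and collagen VI chains, the 6 other chains with the highest level per kilobase and any that passed a test, and of each pathway list the 2 genes with the smallest p and the 2 with the highest level per kilobase. Members and lists were chosen with earlier results of these data known. The alternatives comprised DESeq2 1.42.0, other count filters, RLE factors, library sizes that leave out digestive enzymes, corrections for length and GC, halved counts, a block for the replicate number, a sex covariate, and fits without each mouse. Leaving out mice from the sex and interaction fits, and leaving out Bach2KO mice 1 and 3 together, were chosen after seeing the data.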

Additional observations from a re-analysis of the deposited data

Results flagged for a closer look

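In 4 of 56 groups of 4 mice that were examined, 1 mouse lay far from the other 3 of its genotype by Dixon's criterion on log2 CPM, where chance gives about 1 in 20. Col1a1 was 1.00 in Bach2KO mouse 1, and the next Bach2KO value was 3.37. Col3a1 was 1.31 in the same mouse, with the next at 3.80. Col6a3 was -1.44 there, with the next at 0.88. Col23a1, a membrane-bound collagen of low level, was -5.89 in Bach2WT mouse 2, which had 0 counts, with the next at -2.85. The first 3 genes share 1 library and are not separate events.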

How the results depend on the processing

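The count of collagen chains past the adjusted threshold was 0 under every alternative run for the genotype comparison, with lowest adjusted p-values from 0.494 (without Bach2WT mouse 1) to 1.00 (without both Bach2KO mice 1 and 3). At an unadjusted p of 0.05 it was 0 except with no filter on low counts, which gave 1 (Col24a1, 14 counts in all). Over all genes, 1 gene passed in the comparison as reported, 75 with DESeq2 and 73 with no filter, and 0 with at least 10 counts in every library, with sex as a covariate, with counts divided by 2, without Bach2KO mice 1 and 3, and with each mouse left out (0 to 0). With the replicate number as a block it was also 0, and 0 collagen chains passed; mice of the same number deviated together with correlations of -0.05 to 0.21 and 1 of 4 correlated best with its own number, so the numbers do not pair the mice. With each mouse left out, Col4a1 ranged from -0.34 (without Bach2KO mouse 3) to 0.41, Col4a2 from -0.43 (likewise) to 0.37 and Col13a1 from -0.62 to 0.39 (without Bach2WT mouse 3), and Col4a5 and Col7a1 were -0.60 and -0.13 without Bach2KO mice 1 and 3; the cause was not tested. Of the other 438 values of single chains, none crossed the threshold or changed sign by more than its standard error. The median log2 fold change of each class moved by less than 1 SD of the spread between mice under all alternatives. Those of the fibrillar, collagen VI and other chains changed sign with some mice left out, and also under other methods with all mice. The fibrillar median was -0.07 with the replicate block and with the GC correction, and that of collagen VI was -0.02 with DESeq2. For the other chains it was 0.11 with DESeq2 and 0.145 with no filter. Correcting for length and for GC moved the median of all genes from 0.05 to -0.06 and -0.07, the share of higher values among genes at an unadjusted p of 0.05 from 52.2% to 30.3%, and the higher collagen chains from 15 to 12 and 11 of 24. The count of chains for sex was 0, 1 with DESeq2, and 0 to 3 with each mouse left out (3 without Bach2KO mouse 1). For the interaction it was 9, 11 with DESeq2 (9 below and 2 above 0, and 1 by adjusted p, 0.0485), 7 to 11 with each mouse left out (7 below and 2 above 0 without Bach2WT mouse 1, 7 and 1 without Bach2KO mouse 3, and all below 0 without each of the others), 2 of them by adjusted p without Bach2KO mouse 2 (lowest 0.0345), and 5 without both Bach2KO mice 1 and 3. The 13 chains below the filter had 4 to 100 counts in all, so that depth limits what can be said of them.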
